A study of Trichoderma guizhouense with 100 samples.

Results

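The transcriptomes of the deletion mutants ∆Tgace1 and ∆Tgace2 of the filamentous fungus Trichoderma guizhouense NJAU4742 were set against each other after 24 h on Avicel, a microcrystalline cellulose. The comparison covered every gene of the deposited table in 6 of the 100 libraries, 3 of ∆Tgace1 and 3 of ∆Tgace2. Of 11244 genes listed, 10026 were above 1 RPKM (reads per kilobase of transcript, scaled to the number of mapped reads) in at least 2 of the 100 libraries and entered the test. In each mutant 1 regulator gene had been replaced by the hygromycin resistance gene hph, so both mutants carried the same cassette, which the wild type (WT) NJAU4742 lacked. How many transformants stand behind each mutant is not given in the sources used here. The mycelium of all strains was first grown on glucose, washed and moved to Avicel. The same strains had also been sampled on glucose at 0 h, on xylan at 4 h, 24 h and 72 h and on Avicel at 4 h and 72 h, and those libraries are used here to see in which conditions a difference between the mutants recurred.

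Cellulase and xylanase genes of fungi are controlled by activators and repressors of transcription. In the related fungus Trichoderma reesei, ACE1, a protein with C2H2 zinc fingers, is known as a repressor of both enzyme groups, and their main activator is XYR1, of the Zn2Cys6 class found in fungi. Cellulases comprise cellobiohydrolases, which release cellobiose from chain ends, endoglucanases, which cut within the chain, and oxidative enzymes of the GH61 group, while beta-glucosidases turn cellobiose into glucose. Gene names are those of the deposited annotation, many of which come from matches to proteins of other species.

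The level of TgACE1, the gene deleted in ∆Tgace1, was not analysed here, so the ∆Tgace1 labels were not checked by their target. The RPKM of a library summed to 1467934, 1061578 and 1270622 in ∆Tgace1, against 2521324, 2426324 and 2562099 in ∆Tgace2 and 1011555 to 1188378 in the WT, so the sums of the mutants did not overlap. Replicate 1 of ∆Tgace1 stood apart. Its correlation with the other two ∆Tgace1 libraries, over log2 values of all genes tested, was 0.917 and 0.912, while these correlated at 0.989 with each other and the ∆Tgace2 libraries at 0.980 to 0.988 among themselves. The library closest to it was replicate 2 of ∆Tgace1 on xylan at 24 h (r = 0.92), which also stood apart in its own group. No 2 of the 100 libraries held identical values. The number of reads per library is not given. From the steps between values under 0.3 RPKM, 1 read was worth 0.616 and 0.759 in replicates 2 and 3 of ∆Tgace1 and 1.33, 1.35 and 1.65 in the ∆Tgace2 libraries, relative to 1 in replicate 1 of ∆Tgace1, so a low value rested on fewer reads in ∆Tgace2 than the same value in ∆Tgace1.

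Differences are given as log2 differences, ∆Tgace1 minus ∆Tgace2, of the mean log2(RPKM + 1), a scale that understates the change of genes at low levels. A gene was called where its adjusted p was 0.01 or less (limma, Benjamini-Hochberg over all genes tested), its log2 difference was 2 or more in either direction and the mutant with the higher level averaged more than 2 RPKM. On Avicel at 24 h, 31 genes (0.309% of those tested) were higher and 346 genes (3.45%) were lower in ∆Tgace1 than in ∆Tgace2. With the same limit on the unadjusted p, 37 (0.369%) were higher and 349 (3.48%) lower. No function was annotated for 12 of the 31 and 164 of the 346. The 3 values of one mutant all lay above those of the other for 30 of the 31 and 339 of the 346, where that held in the same direction for 20.6% and 21.0% of all genes tested. With 3 libraries against 3, an exact permutation test cannot go below p = 0.1 for a single gene. The calls therefore rest on the spread that limma estimated over all 34 groups of the series, among them those of ∆Tgxyr1 and of carbon starvation. The p-values thus reflect the spread between biological replicates within all of these groups, not only within the groups compared.

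The balance between higher and lower calls followed the scaling of the libraries, while no gene called as deposited was called in the opposite direction under any alternative. As deposited, 91.8% of the calls were lower in ∆Tgace1. After each library was scaled to the same median, 57 genes were higher and 183 lower (76.2% lower) with a median difference of all genes of 0.21, and after quantile normalisation 44 were higher and 137 lower (75.7% lower). After each library was scaled to the same RPKM sum, an alternative chosen after seeing the data, 425 were higher and 39 lower (8.41% lower), and the median difference of all genes was 0.72 in place of 0.03. The difference also depended on the level. The median difference was 0.09 among genes whose mean log2 level over the 6 libraries was under 2 and 0.33 between 2 and 4, but -0.95 between 8 and 10 and -1.30 above 10, and 22.2% of the genes in the top band were called lower. The gene with the highest mean level, OPB42634 (no function annotated), had 46280.2, 36214 and 57089 RPKM in ∆Tgace1, against 199593, 183272 and 196455 RPKM in ∆Tgace2. Without replicate 1 of ∆Tgace1, 43 genes were higher and 352 lower, of which 22 and 257 were also called with it, and without replicate 3 of either ∆Tgace1 or ∆Tgace2, 49 were higher. There were 13 higher and 29 lower genes that were called in each of the 6 fits that left out 1 library and under each of the 3 other scalings. Among these 42 genes, singled out after their values were seen, were OPB37947, OPB41745, OPB44394, OPB37781, OPB45887 and OPB40642 on the higher side, and OPB37453, OPB44998, OPB41959, OPB36373, OPB36375, OPB45001, OPB40097, OPB41747 and OPB37365 on the lower side, all described below.

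**Figure D1:**
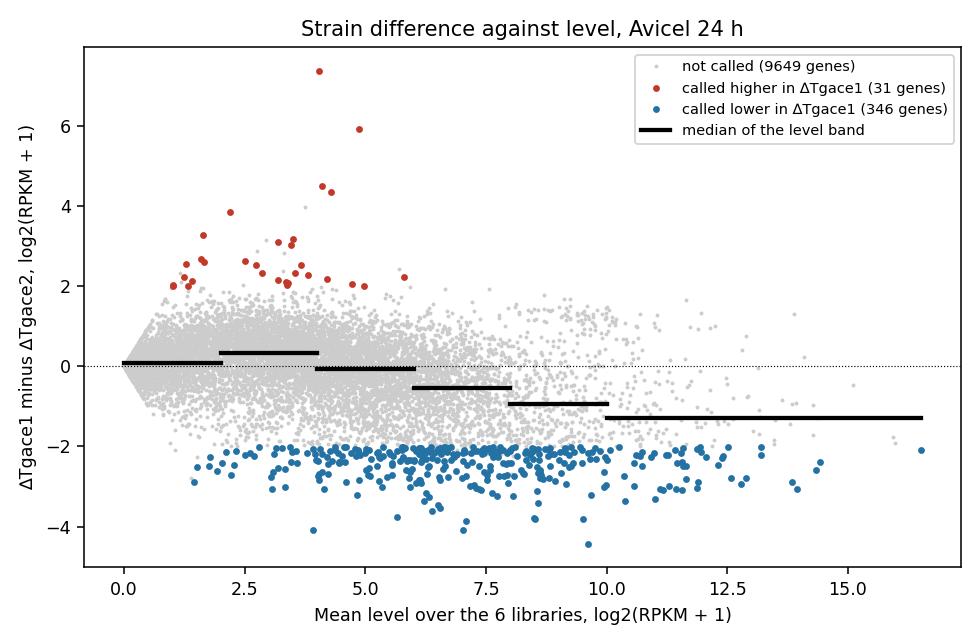
Log2 difference between the mutants (∆Tgace1 minus ∆Tgace2, vertical axis) against the mean log2(RPKM + 1) of the 6 libraries (horizontal axis), 1 point for each of 10026 genes, with called genes coloured and the median of each level band drawn as a line. The 31 higher calls lie under a mean level of 6, and the 346 lower calls reach to the most abundant transcripts, where the band median is -1.30.

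The most divergent transcript was OPB37947, annotated as an efflux pump of the major facilitator superfamily (MFS), membrane carriers of which this kind moves small molecules out of the cell. It had 369, 132 and 196 RPKM in ∆Tgace1, against 0.552, 0.338 and 0 RPKM in ∆Tgace2, and at most 0.934 RPKM in the WT (log2 difference 7.39, standard error 1.23, adjusted p = 1.91e-06). A small secreted cysteine-rich protein (SSCRP), OPB41745, of a class of short exported proteins, had 136, 189.9 and 445 RPKM in ∆Tgace1, against 3.74, 0 and 9.77 RPKM in ∆Tgace2, and was listed at 0 in all 3 WT libraries (log2 difference 5.93, standard error 0.87, adjusted p = 1.28e-07). For both genes every ∆Tgace1 library lay more than 10 times above every ∆Tgace2 library. OPB37946, whose annotation names no function, had 168, 45.5 and 88.3 RPKM in ∆Tgace1, against 4.24, 2.25 and 3.79 RPKM in ∆Tgace2 (log2 difference 4.36, standard error 0.95, adjusted p = 0.000176), and OPB37943, a hypothetical protein, had 12.04, 16.97 and 21.9 RPKM in ∆Tgace1, against 0, 0.764 and 0 RPKM in ∆Tgace2 (log2 difference 3.86, standard error 0.89, adjusted p = 0.000379). OPB37943, OPB37946 and OPB37947 carry nearby numbers, but their positions in the genome were not analysed here.

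Another pair with consecutive numbers was higher in ∆Tgace1. The isoamyl alcohol oxidase OPB46145, an oxidase of a branched-chain alcohol, had 7.84, 32.4 and 63.7 RPKM in ∆Tgace1, against 2.403, 1.11 and 3.14 RPKM in ∆Tgace2 (log2 difference 3.11, standard error 0.93, adjusted p = 0.00579), and the hypothetical protein OPB46144 had 19.1, 122 and 219 RPKM in ∆Tgace1, against 5.19, 0 and 6.6 RPKM in ∆Tgace2 (log2 difference 4.50, standard error 1.06, adjusted p = 0.000482). OPB36478, of the NmrA-like family named after a regulator of nitrogen use in Aspergillus, had 8.55, 44.9 and 70.1 RPKM in ∆Tgace1, against 3.02, 1.41 and 4.96 RPKM in ∆Tgace2 (log2 difference 3.02, standard error 0.63, adjusted p = 9.69e-05). In these 3 genes, chosen among called genes without overlap between the mutants, replicate 1 was the lowest of the ∆Tgace1 libraries. The call of OPB46145 was lost without replicate 2 or 3 of ∆Tgace1 or replicate 1 or 2 of ∆Tgace2 (adjusted p between 0.0147 and 0.0516), and that of OPB46144 without replicate 2 of ∆Tgace2 (0.0152). The hypothetical protein OPB45516 had 38.5, 18.2 and 51 RPKM in ∆Tgace1, against 1.85, 1.899 and 5.38 RPKM in ∆Tgace2 (log2 difference 3.18, standard error 0.73, adjusted p = 0.000312).

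Of 59 cytochromes P450, 42 genes of secondary metabolism and 65 antioxidant and redox enzymes tested, 2, 2 and 1 were called higher in ∆Tgace1 (3.39%, 4.76% and 1.54%, where all genes had 0.309%). The cytochrome P450 monooxygenase OPB37781 had 32.97, 29.1 and 26.9 RPKM in ∆Tgace1, against 4.25, 3.57 and 5.01 RPKM in ∆Tgace2 (log2 difference 2.54, standard error 0.35, adjusted p = 2.71e-08), with little spread within either mutant. Another P450, OPB36803, differed by 2.23 and was close to 0 in ∆Tgace2. OPB45887, a polyketide synthase (PKS), the kind of enzyme that assembles polyketide skeletons from acyl units, had 14.4, 38.3 and 27.5 RPKM in ∆Tgace1, against 3.498, 4.66 and 4.38 RPKM in ∆Tgace2 (log2 difference 2.33, standard error 0.41, adjusted p = 4.43e-06). OPB44394, of the glutathione-dependent formaldehyde-activating (GFA) family, had 28.2, 7.04 and 10.9 RPKM in ∆Tgace1, against 1.17, 1.39 and 1.22 RPKM in ∆Tgace2 (log2 difference 2.64, standard error 0.37, adjusted p = 3.78e-08). The siderophore transporter OPB43222, a carrier of iron chelates, differed by 2.10. No P450 and no gene of secondary metabolism was called lower, and the median differences of the 3 lists were 0.03, -0.04 and 0.09, beside 0.03 for all genes. The call of OPB36803 was lost without replicate 3 of ∆Tgace1 (a log2 difference of 1.70) and that of OPB43222 without replicate 1 (1.91). The methyltransferase OPB36446, which is in none of these lists, differed by 2.18, and its call was lost without replicate 2 (1.72) or replicate 3 (1.72) of ∆Tgace1.

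**Figure D2:**
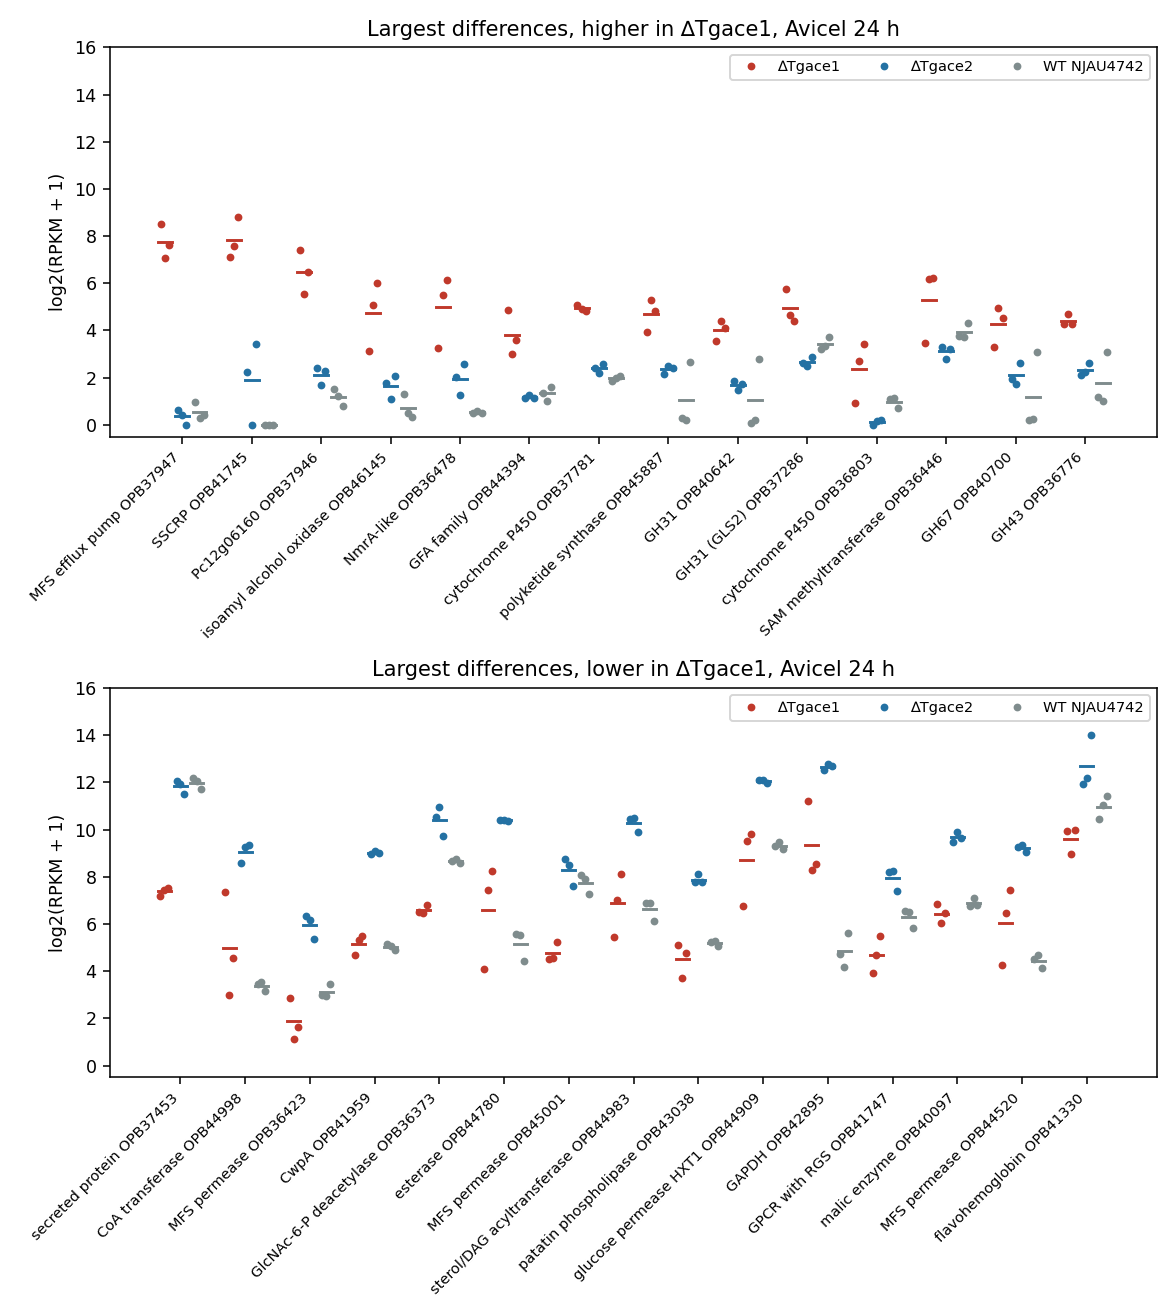
Level of the named genes called higher (upper panel) and lower (lower panel) in ∆Tgace1 than in ∆Tgace2 on Avicel at 24 h, as log2(RPKM + 1), with 1 point for each library, a short bar at the mean of 3 libraries, and for each gene ∆Tgace1 followed by ∆Tgace2 and the WT. The MFS efflux pump OPB37947 and the SSCRP OPB41745 lie at 132 RPKM or more in all ∆Tgace1 libraries and under 10 RPKM in all ∆Tgace2 libraries.

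Of 192 carbohydrate-active enzymes, a list of genes annotated with an enzyme family, 3 (1.56%, where all genes had 0.309%) were higher and 4 (2.08%, where all genes had 3.45%) lower in ∆Tgace1, with a median of 0.06. The GH31 enzyme OPB40642, annotated as an alpha-xylosidase or alpha-glucosidase, had 10.6, 20.1 and 15.97 RPKM in ∆Tgace1, against 2.58, 1.76 and 2.35 RPKM in ∆Tgace2 (log2 difference 2.33, standard error 0.32, adjusted p = 3.1e-08). OPB37286, annotated as the alpha subunit of glucosidase II, which trims glucose from N-glycans in the endoplasmic reticulum, had 53.6, 24.5 and 20.2 RPKM in ∆Tgace1, against 5.08, 4.62 and 6.33 RPKM in ∆Tgace2 (log2 difference 2.29, standard error 0.22, adjusted p = 7.64e-13), and its difference without replicate 1 of ∆Tgace1 was 1.88, short of a call. The GH43 enzyme OPB36776, a beta-xylosidase or arabinofuranosidase by its annotation, differed by 2.11 and fell short without replicate 2 of ∆Tgace1 (1.96) and, by a narrow margin, without replicate 1 of ∆Tgace2. The 4 lower genes were the GH2 mannosidase OPB43763 (-2.67), the trehalose phosphorylase or synthase OPB37681 (-2.48), the GT32 gene OPB43375 (-2.18) and the GH3 N-acetylglucosaminidase OPB36372 (-2.29), and OPB43375 was named after its values were seen. The difference of OPB43763 was -1.41 without replicate 1 of ∆Tgace1, and 9 and 11 genes of the list were lower without replicates 2 and 3 of ∆Tgace1. After quantile normalisation 5 were higher and none lower, where 44 and 137 of all genes were. Outside the list, the GH67 gene OPB40700 was higher by 2.15, a call lost without replicate 2 of ∆Tgace1 (adjusted p = 0.0193) or replicate 2 of ∆Tgace2 (0.0128). The GH3 gene OPB38105, called higher by 2.06 and described below, was also outside it.

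Genes lower in ∆Tgace1 were led by transcripts that were abundant in ∆Tgace2. OPB37453, a secreted protein of no annotated function, had 147, 175 and 185 RPKM in ∆Tgace1, against 4226, 3943 and 2896 RPKM in ∆Tgace2 (log2 difference -4.43, standard error 0.51, adjusted p = 3.2e-10), and 4666, 4250.5 and 3425 RPKM in the WT. The coenzyme A transferase OPB44998, an enzyme that moves coenzyme A between organic acids, had 163, 7.05 and 22.7 RPKM in ∆Tgace1, against 388, 613 and 648 RPKM in ∆Tgace2 (log2 difference -4.09, standard error 0.71, adjusted p = 4.3e-06). The wall protein CwpA (OPB41959) had 24.6, 38.8 and 43.9 RPKM in ∆Tgace1, against 498, 540.5 and 518 RPKM in ∆Tgace2 (log2 difference -3.86, standard error 0.42, adjusted p = 4.43e-11). These 3 genes were chosen among called genes without overlap between the mutants. In OPB44998 replicate 1 of ∆Tgace1 exceeded the other ∆Tgace1 libraries. Of 94 small secreted proteins and hydrophobins tested, 7 (7.45%, where all genes had 3.45%) were lower and 1 was higher (OPB41745), and their median difference was -0.32. The lower ones included the SSCRP genes OPB40183 (-2.96), OPB43042 (-2.54) and OPB37107 (-2.47).

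Membrane carriers were among the genes lower in ∆Tgace1. Of 181 MFS transporters tested, 10 (5.52%, where all genes had 3.45%) were lower and 1 was higher, with a median of -0.08, and without replicate 1 of ∆Tgace1 11 were lower and 4 higher, with a median of 0.07. The MFS permease OPB36423 had 6.3, 1.19 and 2.13 RPKM in ∆Tgace1, against 80.2, 71.9 and 39.7 RPKM in ∆Tgace2 (log2 difference -4.08, standard error 0.47, adjusted p = 3.96e-10), and the MFS permease OPB45001 had 21.9, 22.5 and 36.5 RPKM in ∆Tgace1, against 435, 365 and 196 RPKM in ∆Tgace2 (log2 difference -3.53, standard error 0.40, adjusted p = 1.62e-10). The glucose permease HXT1 (OPB44909), a carrier for hexose uptake, had 109, 736 and 903 RPKM in ∆Tgace1, against 4416, 4398 and 4029.9 RPKM in ∆Tgace2 (log2 difference -3.35, standard error 0.80, adjusted p = 0.000525), and OPB44520, annotated with a question mark as a galactose permease, had 18.1, 87.4 and 172 RPKM in ∆Tgace1, against 608, 642 and 528 RPKM in ∆Tgace2 (log2 difference -3.16, standard error 0.62, adjusted p = 3.64e-05). These 4 permeases were chosen among called genes without overlap between the mutants. Replicate 1 was the lowest ∆Tgace1 library in HXT1 and OPB44520. Without replicate 1 of ∆Tgace1 HXT1 differed by -2.39 and was not called (adjusted p = 0.0269). Of 57 carriers for amino acids and other nitrogen compounds, 5 (8.77%) were lower and none was higher, among them OPB46620 (-2.59), OPB37330 (-2.37), OPB40078 (-2.18) and OPB45263 (-2.07). The calls of OPB37330 (without replicate 1 of ∆Tgace1), OPB40078 (without replicate 2 or 3 of ∆Tgace1 or replicate 3 of ∆Tgace2) and OPB45263 (without replicate 1 or 2 of either mutant) rested on single libraries, with differences of -2.01 to -1.71 in their absence. In this list 2 genes were lower without replicate 2 of ∆Tgace1, 2 after median scaling, 1 after quantile normalisation and none after scaling to the same sum (2 higher) or with only the 6 libraries in the fit. Of 39 ABC transporters, which pump substrates with ATP, 3 (7.69%) were lower, namely OPB38902 (-2.71), OPB40064 (-2.10) and OPB45838 (-2.02). Only 1 of the ABC transporters was lower and 1 was higher without replicate 1 of ∆Tgace1, and OPB38902 and OPB45838 then differed by -1.81 and -1.01, with adjusted p of 0.0316 and 0.153. The call of OPB40064 was lost without replicate 2 of ∆Tgace1 (-1.97) or replicate 3 of ∆Tgace2 (-1.98), and that of OPB45838 also without replicate 1 of ∆Tgace2 (-1.85).

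OPB36373, OPB36375 and OPB36372, annotated as enzymes that release or use N-acetylglucosamine, the building block of chitin, were lower in ∆Tgace1. The N-acetylglucosamine-6-phosphate deacetylase OPB36373, which removes the acetyl group, had 91.4, 87.1 and 110.3 RPKM in ∆Tgace1, against 1489, 2004 and 855 RPKM in ∆Tgace2 (log2 difference -3.82, standard error 0.47, adjusted p = 1.3e-09). The glucosamine-6-phosphate isomerase OPB36375, which passes the product on to fructose-6-phosphate, had 68.02, 46.01 and 53.4 RPKM in ∆Tgace1, against 472, 671 and 327 RPKM in ∆Tgace2 (log2 difference -3.07, standard error 0.28, adjusted p = 2.74e-13). The GH3 N-acetylglucosaminidase OPB36372, which releases the sugar from chitin fragments, had 44.97, 29.98 and 36.5 RPKM in ∆Tgace1, against 179, 249 and 138 RPKM in ∆Tgace2 (log2 difference -2.29, standard error 0.29, adjusted p = 4.26e-09). OPB36375 and OPB36372 were chosen after their values were seen, because their numbers lie next to that of the deacetylase. Among 22 chitinases tested, which cut the polymer itself, none passed in either direction, and their median was -0.04, while 2 were higher without replicate 1 of ∆Tgace1.

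An esterase, an acyltransferase and a phospholipase were also among the genes lower in ∆Tgace1. The esterase OPB44780 had 16.3, 173 and 304 RPKM in ∆Tgace1, against 1368, 1348 and 1323 RPKM in ∆Tgace2 (log2 difference -3.79, standard error 0.76, adjusted p = 4.72e-05). OPB44983, an acyltransferase that stores sterols or diacylglycerol as esters, had 42.9, 129 and 280.4 RPKM in ∆Tgace1, against 1404, 1427 and 962 RPKM in ∆Tgace2 (log2 difference -3.41, standard error 0.42, adjusted p = 1.41e-09), and OPB43038, a phospholipase of the patatin family, had 33.2, 11.98 and 26.3 RPKM in ∆Tgace1, against 219.6, 274 and 217 RPKM in ∆Tgace2 (log2 difference -3.36, standard error 0.40, adjusted p = 6.5e-10). All 3 were chosen among called genes without overlap between the mutants. Of 49 genes of fatty acid oxidation and peroxisomes, none was called, and the median was -0.05.

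Genes of central carbon metabolism were lower in a few members only. Glyceraldehyde-3-phosphate dehydrogenase (OPB42895), a step of glycolysis, had 2389.6, 315 and 370.5 RPKM in ∆Tgace1, against 5864, 6959.5 and 6569 RPKM in ∆Tgace2, and 25.9, 17.3 and 47.8 RPKM in the WT (log2 difference -3.30, standard error 0.87, adjusted p = 0.00177). Phosphoglycerate kinase (OPB40278) and enolase (OPB39612), which act later in the same pathway, differed by -2.06 and -2.02. These were the 3 of 46 genes of glycolysis and the TCA cycle that passed (6.52%, where all genes had 3.45%). All were lower, and the list's median was -0.34. In each of these 3, the ∆Tgace1 value was highest in replicate 1. All 3 calls were lost without replicate 2 of ∆Tgace1 (adjusted p between 0.0206 and 0.0325) and without replicate 3 (0.0120 to 0.0192), those of OPB40278 and OPB39612 also without replicate 3 of ∆Tgace2, and that of OPB40278 also without replicate 2 of ∆Tgace2. After quantile normalisation none of the 46 was called and the median was 0.06. The ATP-dependent phosphoenolpyruvate carboxykinase OPB36548, which starts gluconeogenesis, had 181, 2180.1 and 2871 RPKM in ∆Tgace1, against 11993, 11234 and 5119 RPKM in ∆Tgace2 (log2 difference -3.08, standard error 0.50, adjusted p = 1.31e-06). It was the only one of 8 genes (12.5%) of the glyoxylate cycle and gluconeogenesis called, and without replicate 1 of ∆Tgace1 it differed by -1.82 and was not called, where the median of the list was -0.10, against -0.45 with all libraries. The malic enzyme OPB40097, which turns malate into pyruvate, had 114, 64.8 and 86.8 RPKM in ∆Tgace1, against 712, 958 and 794 RPKM in ∆Tgace2 (log2 difference -3.23, standard error 0.55, adjusted p = 2.68e-06). L-xylulose reductase (lxr1, OPB42690), named after an enzyme of pentose use in T. reesei, differed by -2.50 and was the only one of 8 genes (12.5%) of pentose catabolism called. After quantile normalisation, or with only the 6 libraries in the fit, no gene of either list was called.

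The flavohemoglobin OPB41330, which detoxifies nitric oxide, had 974, 493 and 1001 RPKM in ∆Tgace1, against 3936, 4626 and 16569.7 RPKM in ∆Tgace2 (log2 difference -3.10, standard error 0.68, adjusted p = 0.00018). The alternative oxidase aox1 (OPB39606), which passes electrons to oxygen outside the cytochrome pathway, was named after its values were seen and had 1380.1, 2252 and 4614 RPKM in ∆Tgace1, against 9629.7, 11833 and 14463 RPKM in ∆Tgace2 (log2 difference -2.28, standard error 0.43, adjusted p = 1.8e-05). Thioredoxin reductase (OPB37640) and catalase-1 (OPB39159) differed by -2.39 and -2.08, the 2 lower genes (3.08%, below the 3.45% of all genes) of the 65 antioxidant and redox enzymes, of which 4 were lower without replicate 3 of ∆Tgace1. The catalase values of the mutants overlapped, with 4.07, 68.2 and 96.2 RPKM in ∆Tgace1, against 183, 149 and 91.6 RPKM in ∆Tgace2. Its difference was -0.74 without replicate 1 of ∆Tgace1, with no call, and its call was also lost without replicate 1 or 2 of ∆Tgace2 (adjusted p = 0.0170 and 0.0108). Of 50 heat shock proteins and chaperones, 6 (12%, where all genes had 3.45%) were lower and none was higher. After quantile normalisation, and with only the 6 libraries in the fit, none was lower, after scaling to the same sum 1 was lower and 2 higher, and without replicate 3 of ∆Tgace1 10 were lower. The small heat shock protein OPB43709, of the Hsp26/Hsp42 kind that holds unfolded proteins, had 813, 1083 and 2531 RPKM in ∆Tgace1, against 11282, 13113 and 8332 RPKM in ∆Tgace2 (log2 difference -3.04, standard error 0.72, adjusted p = 0.00048). OPB39187 of the same kind and the Hsp30 gene OPB45522 differed by -2.93 and -2.85, the second with no call without replicate 1 of ∆Tgace1 (-1.87). The list's median was -0.27, which relative to that of all genes was -0.30 as deposited and -0.07 after quantile normalisation.

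Among genes of the translation machinery most members had positive differences, and the direction of the calls turned with the scaling. Of 76 tRNA synthetases and translation factors, 4 (5.26%, where all genes had 3.45%) were lower, while 60 had a positive difference and the median was 0.67. The aspartyl-tRNA synthetase OPB43798 had 1580.0, 418 and 678 RPKM in ∆Tgace1, against 5722, 6298 and 7258 RPKM in ∆Tgace2 (log2 difference -3.06, standard error 0.81, adjusted p = 0.00183), and OPB43262, OPB38048 and OPB40023, the synthetases for serine, aspartate and mitochondrial leucine, differed by -2.52, -2.16 and -2.16. The calls of OPB43798 and OPB40023 were lost without replicate 2 of ∆Tgace1 (-2.63 with an adjusted p of 0.0188, and -1.93) and that of OPB38048 without replicate 1 (-1.86). After scaling to the same sum 17 of the 76 were higher and 1 lower, where 425 and 39 of all genes were. After quantile normalisation none was called. Of 91 cytosolic ribosomal proteins, 75 had a positive difference, the median was 1.06, and OPB40138 (-2.09) was the only member called as deposited (1.1%), a call lost without replicate 2 of ∆Tgace1 (-1.77), where 2 others were higher. No ribosomal protein was lower after median scaling (1 higher), quantile normalisation (10 higher) or scaling to the same sum (48 higher). Of all 10026 genes tested, 57, 44 and 425 were higher under these scalings. Without replicate 1 of ∆Tgace1 the median was 0.45 for the ribosomal proteins and 0.39 for the synthetases and translation factors. The 40S protein S0 (OPB43125), picked after its values were seen, had 2250.4, 808 and 554 RPKM in ∆Tgace1, against 267, 221 and 501 RPKM in ∆Tgace2.

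The called genes of the Zn2Cys6, C2H2 and G protein-coupled receptor lists were lower in ∆Tgace1. Of 224 Zn2Cys6 regulators tested 6 were lower, a share of 2.68% that is below the 3.45% of all genes. They included OPB37365, with 2.097, 2.97 and 2.65 RPKM in ∆Tgace1, against 26.3, 29.8 and 27.6 RPKM in ∆Tgace2 (log2 difference -3.02, standard error 0.40, adjusted p = 1.13e-08), and OPB37369 (-2.83), OPB47165 (-2.77) and OPB43725 (-2.13). Of 48 C2H2 regulators 1 (2.08%), OPB38986 (-2.16), was lower, with no call without replicate 2 or 3 of ∆Tgace1 (-1.74 and -1.84), and without replicate 1 there were 4. OPB41747, a G protein-coupled receptor with an RGS domain, which speeds the shut-off of G proteins, had 14.04, 24.4 and 44.6 RPKM in ∆Tgace1, against 296, 306 and 166 RPKM in ∆Tgace2 (log2 difference -3.26, standard error 0.33, adjusted p = 9.5e-12). It was 1 of 3 lower genes (6.82%) among 44 G protein-coupled receptors tested, with OPB41513 (-2.48) and the PTH11 receptor OPB37178 (-2.13), and neither of those 2 was called without replicate 2 of ∆Tgace1 (-1.97 and -1.93), nor OPB37178 without replicate 2 of ∆Tgace2 (-1.94). The activator XYR1 (OPB38038) had 80.2, 198 and 89.9 RPKM in ∆Tgace1, against 47.5, 68.8 and 83.1 RPKM in ∆Tgace2, overlapping values that did not pass (log2 difference 0.79, standard error 0.40, adjusted p = 0.114). OPB36832, which the study names as a homologue of the cellulase regulator ACE3, had 217, 310.1 and 213 RPKM in ∆Tgace1, against 145, 150.2 and 159 RPKM in ∆Tgace2, higher in every ∆Tgace1 library but short of the call (log2 difference 0.68, standard error 0.27, adjusted p = 0.0415). OPB38568, which the study names as the homologue of the cellulase regulator CLR-2 of Neurospora, had 25.4, 28.1 and 22.98 RPKM in ∆Tgace1, against 42.7, 52.6 and 48.8 RPKM in ∆Tgace2, lower in every ∆Tgace1 library and also short of the call (log2 difference -0.89, standard error 0.38, adjusted p = 0.056).

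Cellulase transcripts were more abundant in ∆Tgace1 than in ∆Tgace2 in 8 of 9 main genes, with no overlap between the mutants, which held for 20.6% of all genes, yet only the GH3 gene OPB38105 passed the threshold. Cellobiohydrolase 1 (cbh1, OPB45635) had 22953, 28909 and 20458 RPKM in ∆Tgace1, against 9439.8, 9953 and 9638 RPKM in ∆Tgace2, and 7.003, 119 and 2695 RPKM in the WT (log2 difference 1.30, standard error 1.19, adjusted p = 0.419). Cellobiohydrolase 2 (cbh2, OPB43438) had 8439, 11471 and 10067 RPKM in ∆Tgace1, against 5297, 6175 and 6039 RPKM in ∆Tgace2 (log2 difference 0.77, standard error 1.13, adjusted p = 0.643). Of the endoglucanases, both genes annotated as egl2 were in the same direction, OPB37031 with 199, 619.7 and 396 RPKM in ∆Tgace1, against 85.5, 97.4 and 103 RPKM in ∆Tgace2 (log2 difference 1.93, standard error 0.74, adjusted p = 0.0317) and OPB43431 with 1501, 2168 and 1579.6 RPKM in ∆Tgace1, against 527, 625 and 805 RPKM in ∆Tgace2 (log2 difference 1.42, standard error 0.81, adjusted p = 0.168). The GH12 endoglucanase OPB41394 had 2405, 4267 and 3478 RPKM in ∆Tgace1, against 1175, 1285 and 1609.7 RPKM in ∆Tgace2 (log2 difference 1.29, standard error 0.83, adjusted p = 0.228). The GH61 genes cel61b (OPB46655) and cel61a (OPB41190) differed by 1.66 and 0.93, whereas all ∆Tgace1 values of the GH61 monooxygenase OPB37570 lay below those of ∆Tgace2, with 132, 122 and 102 RPKM in ∆Tgace1, against 288, 263 and 206 RPKM in ∆Tgace2 (log2 difference -1.08, standard error 0.47, adjusted p = 0.0604). The GH3 gene OPB38105 had 52.9, 66.2 and 43 RPKM in ∆Tgace1, against 12.98, 11.8 and 11.3 RPKM in ∆Tgace2 (log2 difference 2.06, standard error 0.44, adjusted p = 0.00015), close to the fold needed for a call, and it was not called without replicate 2 of ∆Tgace1 (1.90) or with a pseudocount of 0.1 or 2.

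The median difference of the 9 cellulase genes was 1.30, beside 0.03 for all genes, and it was 1.27 above that of all genes as deposited and 1.37, 2.06 and 1.58 above it after median scaling, quantile normalisation and scaling to the same sum. Without replicate 1 of ∆Tgace1 it was 1.52. The standard errors of these genes come from all groups, among them the WT, whose cbh1 values ranged between 7.0 and 2695 RPKM on Avicel at 24 h. With only the 6 libraries in the fit, which called 5 higher genes in all, OPB38105 was again the one cellulase called. In that fit 7 of the 9 cellulase genes had an adjusted p below 0.05, a looser limit than that of a call. With all libraries in the fit, 2 of the 9 did. The share of all genes at this limit is not given here, so neither count can be read as particular to cellulases. With all libraries in the fit, 4538 of all genes tested had an unadjusted p below 0.05 (limma). All 9 genes annotated as other beta-glucosidases also had positive differences, with a median of 0.62 and none called, and their median was 0.18 without replicate 1 of ∆Tgace1.

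None of the 15 genes in the list of xylan-degrading enzymes was called on Avicel at 24 h. That list leaves out the GH67 gene OPB40700 and the GH43 beta-xylosidase or arabinofuranosidase OPB36776, both called higher in ∆Tgace1. The median difference of the 15 was 0.31, and replicate 1 of ∆Tgace1 was the lowest of its group in 13 of them, against 6 of the 9 cellulases. Xylanase 2 (xyn2, OPB43840) had 7175, 31397 and 29821 RPKM in ∆Tgace1, against 17153, 15619 and 15359 RPKM in ∆Tgace2 (log2 difference 0.24, standard error 1.02, adjusted p = 0.899), so that replicate 1 lay below and replicates 2 and 3 above all ∆Tgace2 libraries. The acetyl xylan esterase OPB46214 showed the same order, with 1531, 10913 and 7969.5 RPKM in ∆Tgace1, against 6268, 6196 and 6266 RPKM in ∆Tgace2. In 2 genes all ∆Tgace1 values lay above those of ∆Tgace2. The beta-xylosidase BXL1 (OPB36249) had 279, 399.6 and 339.5 RPKM in ∆Tgace1, against 138, 146 and 130.4 RPKM in ∆Tgace2 (log2 difference 1.27, standard error 0.75, adjusted p = 0.18). The alpha-glucuronidase OPB39965 had 4.26, 21.3 and 13.6 RPKM in ∆Tgace1, against 2.32, 3.39 and 2.37 RPKM in ∆Tgace2 (log2 difference 1.71, standard error 0.41, adjusted p = 0.00063), below the fold needed for a call. The arabinofuranosidase OPB41212 went the other way with 0.196, 0.362 and 1.19 RPKM in ∆Tgace1, against 4.15, 1.98 and 3.57 RPKM in ∆Tgace2 (log2 difference -1.43, standard error 0.35, adjusted p = 0.000654). Without replicate 1 of ∆Tgace1 the median of the list was 0.93 and 1 gene was called higher. Whether this library represents ∆Tgace1 on Avicel was not tested.

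**Figure D3:**
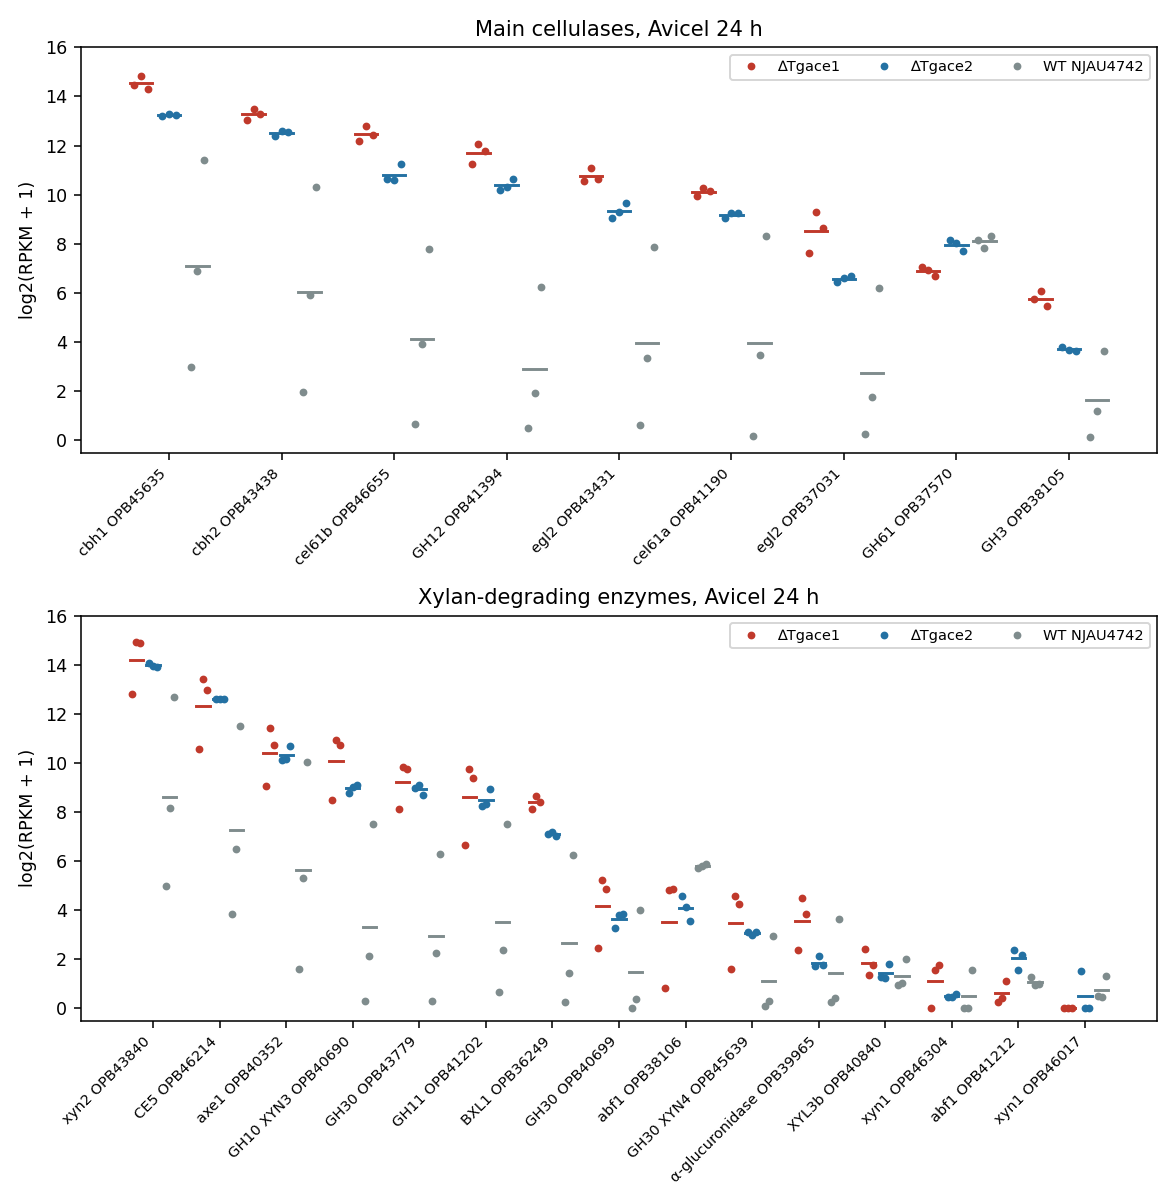
Level of 9 main cellulase genes (upper panel) and 15 xylan-degrading enzymes (lower panel) on Avicel at 24 h, as log2(RPKM + 1), with 1 point for each library and a short bar at the mean, and with ∆Tgace1 left of ∆Tgace2 and the WT last. In 8 of the 9 cellulase genes all ∆Tgace1 points lie above all ∆Tgace2 points, while in the xylan-degrading enzymes replicate 1 of ∆Tgace1 is the lowest of its group in 13 of 15.

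In 11 of the 34 gene lists the share of lower genes exceeded the 3.45% of all genes. At least 1 lower gene was found in 21 lists as deposited, in 18 after median scaling, in 8 after quantile normalisation, in 8 with only the 6 libraries in the fit and in 7 after scaling to the same sum. A higher gene was found in 8 lists as deposited, with 1 of 9 main cellulases and 1 of 14 pectin and arabinan enzymes (OPB36776), in 3 lists with only the 6 libraries in the fit and in 28 after scaling to the same sum. As deposited, no gene was called in either direction among beta-glucosidases (9 genes tested), xylan-degrading enzymes (15), chitinases (22), wall glucanases (33), swollenin and expansin-like proteins (14), conidiation (12), ribosome biogenesis (48), fatty acid oxidation and peroxisomes (49) and ER folding and secretion (84). The mannan and galactoside hydrolases had 1 lower member of 20 (5%), the GH2 mannosidase OPB43763 (-2.67). Of 158 proteases and peptidases 4 (2.53%, below the 3.45% of all genes) were lower, OPB37474 (-2.21), OPB35950 (-2.13), OPB38347 (-2.13, not called without replicate 2 of ∆Tgace2) and the proteasome subunit OPB39683 (-2.69). As a check for another cell state, 12 genes of conidiation and sporulation, the formation of spores, summed to 840 to 1595 RPKM in ∆Tgace1, against 1036 to 1130 RPKM in ∆Tgace2, none was at 0 in all 6 libraries and none was called. Their differences went both ways, with 7 positive, 5 negative and a median of 0.09. All ∆Tgace1 values lay above those of ∆Tgace2 in 2 of them (OPB40008 and OPB37002) and below in 3. One of the lower ones, conidiation-specific protein 10 (OPB41395), was picked after its values were seen. It had 31.97, 99.5 and 57.04 RPKM in ∆Tgace1, against 235, 355 and 179 RPKM in ∆Tgace2. In bulk RNA, fewer cells of one state and less RNA per cell cannot be told apart.

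**Figure D4:**
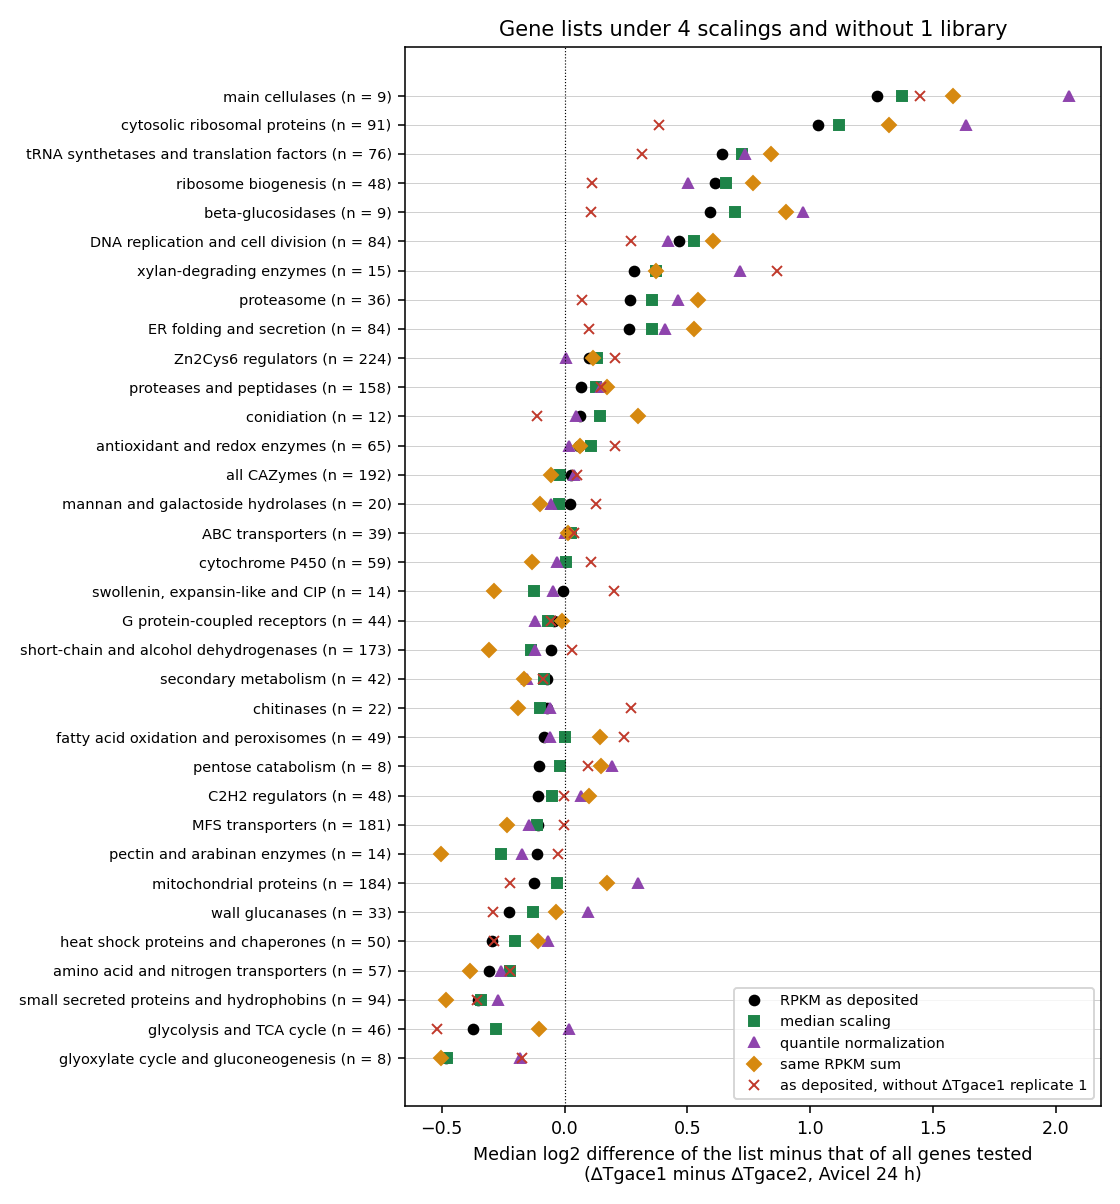
Median log2 difference between the mutants (∆Tgace1 minus ∆Tgace2) of each gene list, less the median of all genes, as deposited, under 3 other scalings and without replicate 1 of ∆Tgace1 (crosses). Under these 4 scalings the main cellulases lie between 1.27 and 2.06 above all genes and the cytosolic ribosomal proteins between 1.03 and 1.64, with their cross at 0.38.

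The comparison was repeated in the other 6 conditions, where ∆Tgace1 and ∆Tgace2 are represented by other libraries, with RPKM as deposited. The RPKM sums again lay lower in ∆Tgace1, without overlap, on xylan at every time and on Avicel at 72 h. On Avicel at 72 h they were 833461 to 1012435, against 1634872 to 1966237 in ∆Tgace2. On xylan at 72 h they were 597057 to 776044, against 1734280 to 1998205. On glucose at 0 h and Avicel at 4 h the sums overlapped. Whether the shared calls follow these sums was not tested. On Avicel at 72 h, 22 genes (0.219%) were higher and 351 (3.50%) lower in ∆Tgace1, and the 202 genes lower at both times were 58.4% of the 346 and 57.5% of the 351. On xylan at 72 h, 24 (0.239%) were higher and 563 (5.62%) lower, and the 205 shared lower genes were 59.2% of the 346 and 36.4% of the 563. Shared lower genes numbered 131 on xylan at 24 h (37.9% of the 346 and 39% of 336, which are 3.35% of genes tested), 92 on xylan at 4 h (26.6% and 50.3% of 183, 1.83%), 50 on Avicel at 4 h (14.5% and 38.8% of 129, 1.29%) and 18 on glucose at 0 h (5.20% and 21.7% of 83, 0.828%). Of the 31 higher genes, 8 (25.8%) were also among the 274 (2.73%) higher on xylan at 24 h. In each of the other conditions 1 to 3 of them were higher. There, 106 genes (1.06%) were higher on xylan at 4 h, 111 (1.11%) on Avicel at 4 h and 23 (0.229%) on glucose at 0 h. The gene deleted in ∆Tgace2 was not left out of these counts. Without replicate 1 of ∆Tgace1 on Avicel at 24 h, 11 lower genes were shared with glucose at 0 h, and 4, 5 and 4 higher genes with xylan at 4 h, Avicel at 4 h and Avicel at 72 h. Called on Avicel at 24 h alone were 21 of the 31 higher and 66 of the 346 lower genes.

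Of the genes tested, 3 were called lower in ∆Tgace1 in all 7 conditions. They were the wall protein CwpA (OPB41959), with log2 differences between -4.77 and -2.34, the 6-phosphofructo-2-kinase OPB39758, which makes an activator of glycolysis, and the hypothetical protein OPB37583, with differences between -3.02 and -2.15. The last 2 were named after their values were seen. The secreted protein OPB37453, the SSCRP OPB40183 and the permease OPB44520 were called lower in 6 conditions each. The cytochrome P450 OPB37781 was called higher in 4 conditions, on xylan at 24 h and on Avicel at 4 h, 24 h and 72 h.

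Some differences turned round between conditions. Of the 31 higher genes, 5 were called lower on glucose at 0 h, where 2 were called higher and 83 of all genes (0.828%) lower. On xylan at 4 h and at 24 h 2 of the 31 were called lower each time. Of the 346 lower genes, 2 were called higher on xylan at 4 h and 3 on xylan at 24 h. On glucose at 0 h the isoamyl alcohol oxidase OPB46145 had 13.2, 13.8 and 53.6 RPKM in ∆Tgace1, against 957, 962 and 935 RPKM in ∆Tgace2, a log2 difference of -5.40, where on Avicel at 24 h it was 3.11. The change between the conditions had an adjusted p of 4.02e-06 (limma), but it reuses the Avicel values by which the gene was named. OPB46144 and OPB36478 turned in the same way, with -4.27 and -3.63 on glucose at 0 h. On xylan at 24 h the hypothetical protein OPB45516 differed by -2.97 and the Zn2Cys6 regulator OPB47165 by 3.40, each opposite to its difference on Avicel. The calls of the 5 genes named in this paragraph in the other condition, and of the change between conditions, held without each of the 3 libraries of these conditions that stood apart. Over all genes the strain difference on Avicel at 24 h lay above that on glucose at 0 h for 73 genes (0.728%) and below it for 165 (1.65%), and it lay above that on xylan at 24 h for 149 (1.49%) and below it for 326 (3.25%). These counts moved with single libraries. Without replicate 3 of ∆Tgace1 on glucose at 0 h, which correlated at 0.886 at the lowest with its group, they were 140 and 463 against glucose, and without replicate 2 of ∆Tgace1 on xylan at 24 h they were 343 and 523 against xylan. Without replicate 1 of ∆Tgace1 on Avicel at 24 h they were 79 and 141 against glucose and 61 and 158 against xylan.

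The efflux pump OPB37947 varied widely among the ∆Tgace1 libraries of other conditions. On glucose at 0 h it had 1.94, 1.64 and 5348 RPKM in ∆Tgace1, against 5.05, 3.904 and 5.64 RPKM in ∆Tgace2. On Avicel at 4 h it had 0.7299, 986 and 0.756 RPKM in ∆Tgace1, against 1.13, 0.421 and 0.815 RPKM in ∆Tgace2, and on xylan at 24 h it had 224, 186 and 25.3 RPKM in ∆Tgace1, against 3.203, 1.69 and 3.84 RPKM in ∆Tgace2. The high values on glucose and on Avicel at 4 h came from the libraries that stood apart from their groups there, replicate 3 and replicate 2, whereas on Avicel at 24 h all 3 ∆Tgace1 libraries were high. In these conditions no ∆Tgace2 library reached the level of the lowest ∆Tgace1 library on Avicel at 24 h.

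On xylan at 24 h, 11 of the 15 xylan-degrading enzymes were called higher in ∆Tgace1, where 274 (2.73%) of all genes were. There the xylanase OPB46017 had 1563, 150.0 and 1988 RPKM in ∆Tgace1, against 8.04, 4.89 and 17.9 RPKM in ∆Tgace2, a log2 difference of 6.28, where on Avicel it was listed at 0 in 5 of the 6 libraries. Its lowest ∆Tgace1 value came from replicate 2, the library that stood apart there. The acetyl xylan esterase OPB46214, the GH30 enzyme OPB40699 and the alpha-glucuronidase OPB39965 differed by 5.45, 5.17 and 5.10 on xylan, against -0.29, 0.54 and 1.71 on Avicel. The difference between the substrates passed the threshold in 8 of the 15 genes, all larger on xylan (adjusted p between 6.98e-10 and 0.00774). Of all genes, 326 (3.25%) passed with a strain difference on Avicel below that on xylan. Of the 15, 10 passed without replicate 2 of ∆Tgace1 on xylan and 5 without replicate 1 of ∆Tgace1 on Avicel. There, 523 and 158 of all genes passed with the difference on Avicel below that on xylan.

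**Figure D5:**
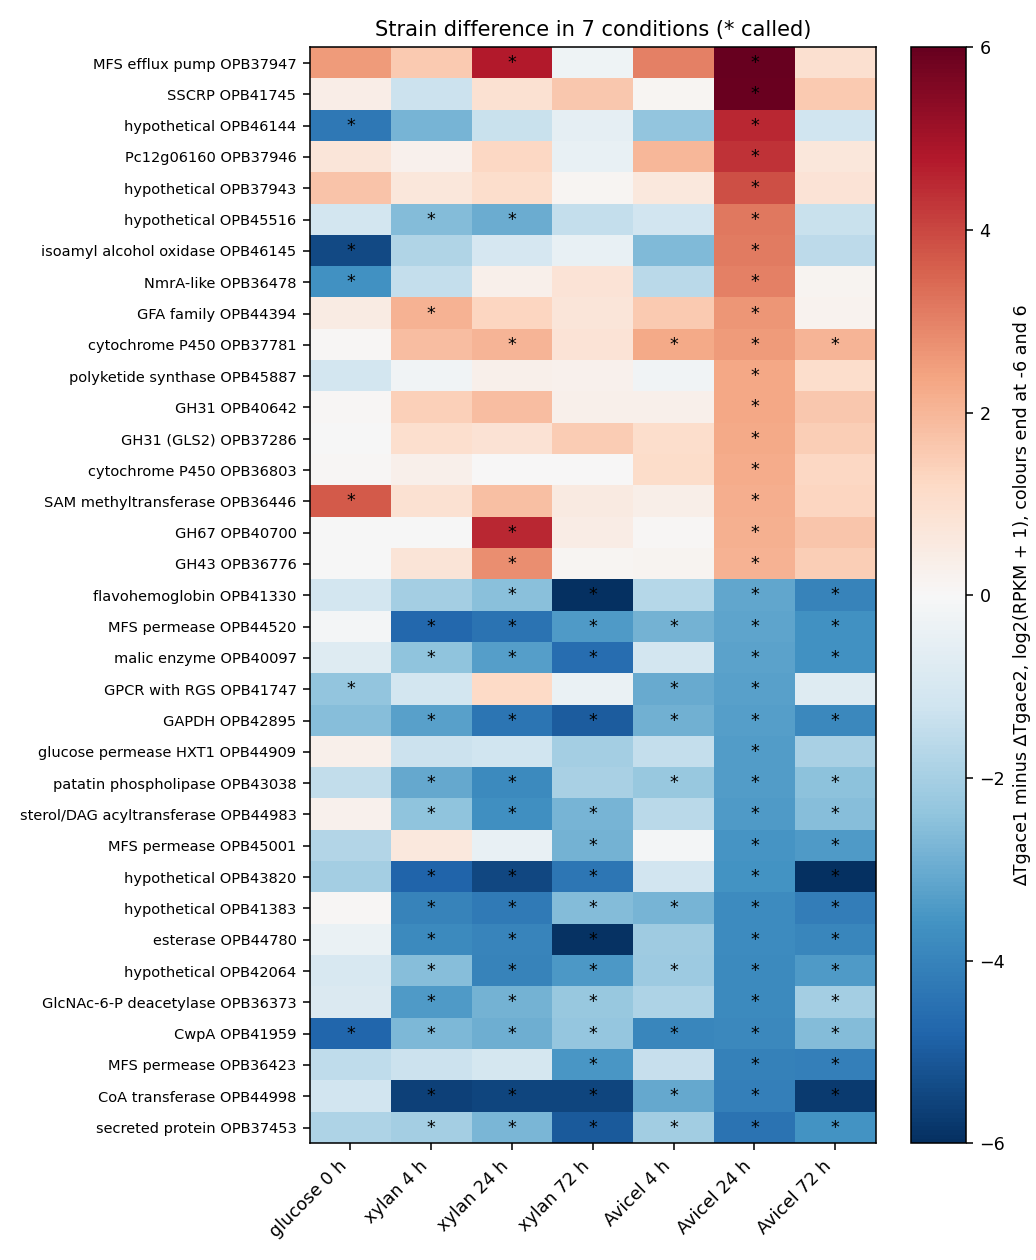
Log2 differences between the mutants (∆Tgace1 minus ∆Tgace2, red where ∆Tgace1 is higher, blue where it is lower) of the named genes in 7 conditions, with an asterisk where the gene was called. CwpA is called lower in all 7, and OPB46144, OPB46145 and OPB36478 are blue on glucose at 0 h and red on Avicel at 24 h.

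Each mutant was also set against the WT on Avicel at 24 h. These comparisons share the WT libraries, so their values are given side by side only. The 31 and 346 genes were chosen by the same mutant libraries, so a gap between the mutants in these genes follows from that choice. Among all genes, 417 (4.16%) were higher and 384 (3.83%) lower in ∆Tgace1 than in the WT, and 754 (7.52%) were higher and 345 (3.44%) lower in ∆Tgace2 than in the WT. Of the 31 genes higher in ∆Tgace1 than in ∆Tgace2, 22 were higher and 1 lower in ∆Tgace1 than in the WT, while 1 was higher and 4 were lower in ∆Tgace2 than in the WT, with median log2 differences from the WT of 2.96 in ∆Tgace1 and 0.20 in ∆Tgace2. Of the 346 lower genes, 16 were higher and 29 lower in ∆Tgace1 than in the WT, and 188 were higher and none lower in ∆Tgace2 than in the WT, with medians of -0.19 in ∆Tgace1 and 2.15 in ∆Tgace2. Examples of 2 kinds can be read from the values. GAPDH (OPB42895) differed from the WT by 4.50 in ∆Tgace1 and by 7.81 in ∆Tgace2, whereas the secreted protein OPB37453 differed from the WT by -4.59 in ∆Tgace1 and by -0.16 in ∆Tgace2. For cbh1 (OPB45635) the differences from the WT were 7.44 in ∆Tgace1 and 6.14 in ∆Tgace2.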

How the data were processed

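RNA from mycelium was enriched for poly(A) transcripts and sequenced as paired ends on an Illumina HiSeq, with 3 biological replicates a group by the study's text. The WT under carbon starvation at 4 h and at 72 h is represented by 2 libraries each, the other groups by 3. The values are RPKM deposited by the authors in 1 table of 11244 genes and 100 libraries, made with TopHat2, Cufflinks and Cuffnorm as the submitters' processing notes name them. The study's text calls these values both RPKM and FPKM. Versions, the annotation release and the scaling that Cuffnorm applied are not given in the sources used here, nor are read counts, so depth is unknown and no count test or counting interval was possible.

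All analysis started from the deposited values. Genes above 1 RPKM in at least 2 libraries were tested on log2(RPKM + 1), with a pseudocount of 1, in R 4.3.3 with limma 3.58.1 (moderated test with a trend, 1 coefficient for each of 34 groups, p-values adjusted by Benjamini-Hochberg over the 10026 genes). The contrast was ∆Tgace1 minus ∆Tgace2, and the same fit gave the contrasts in the other 6 conditions, against the WT and between conditions. Calls needed an adjusted p of 0.01 or less, a log2 difference of 2 or more in either direction and an average over 2 RPKM in the higher of the groups. The steps were tested on simulated data. Figures were drawn with matplotlib 3.10.9.

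Named genes are the regulators the study names by ID, all members of the cellulase and xylan-degrading lists, the 15 called genes with an annotated function and non-overlapping libraries that differed most in each direction, the 3 largest of those without one, and up to 4 called members of each of 34 lists. The gene deleted in ∆Tgace2 is not reported here, although counts over all genes tested include it. Other genes are marked as chosen after their values were seen. Lists were drawn from words of the annotation or from gene IDs, and the word used for G protein-coupled receptors was narrowed after its first members were seen. Members and lists were chosen with earlier results of these data known. Pseudocount, filter, scaling, weights, samples in the fit, replicate block and single libraries were varied.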

Additional observations from a re-analysis of the deposited data

Results flagged for a closer look

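The difference between the mutants was not the same in every condition. A test of that change (limma, adjusted p at most 0.01 and a change of at least 2) passed for 18 named genes against glucose at 0 h and 17 against xylan at 24 h. Called members of lists other than cellulases and xylan-degrading enzymes, if named for that only, are counted where their call turned round. Apart from the xylan-degrading enzymes, these genes were named by their difference on Avicel at 24 h. The change reuses those values, so its direction follows in part from that choice. Of all genes, 0.728% and 1.65% had positive and negative changes against glucose, and 1.49% and 3.25% against xylan. Values below are the log2 difference (∆Tgace1 minus ∆Tgace2) on Avicel at 24 h less that in the other condition. Against glucose at 0 h the largest positive changes were 8.77 for the hypothetical protein OPB46144, 8.51 for the isoamyl alcohol oxidase OPB46145, 6.66 for the NmrA-like OPB36478 and 5.51 for the SSCRP OPB41745. Further positive changes were 4.28 for the hypothetical protein OPB45516, 3.41 for the polyketide synthase OPB45887, 2.46 for the cytochrome P450 OPB37781 and 2.31 for the glucosidase II subunit OPB37286. Positive changes also came to 2.27 for the GH31 enzyme OPB40642, 2.17 for the cytochrome P450 OPB36803, 2.15 for the GH43 enzyme OPB36776 and 2.14 for the GFA family gene OPB44394. The change was negative, with -3.82 for the hypothetical protein OPB41383, -3.69 for the acyltransferase OPB44983 and -2.94 for the N-acetylglucosamine-6-phosphate deacetylase OPB36373. It was -2.86 for the hypothetical protein OPB42064, -2.58 for the secreted protein OPB37453 and -2.58 for the MFS permease OPB36423. The mutants were in opposite order in these conditions for OPB46145, OPB46144 and OPB36478, and called in both. Without replicate 3 of ∆Tgace1 on glucose at 0 h 17 of the 18 passed, and without replicate 1 of ∆Tgace1 on Avicel at 24 h 14 passed.

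Against xylan at 24 h, 8 xylan-degrading enzymes had negative changes. The changes were -6.78 for the xylanase OPB46017, -5.74 for the acetyl xylan esterase OPB46214, -4.63 for the GH30 enzyme OPB40699 and -4.49 for the arabinofuranosidase OPB41212, and -4.41 for the xylanase XYN4 (OPB45639), -3.39 for the alpha-glucuronidase OPB39965, -3.28 for the xylanase OPB46304 and -2.06 for the beta-xylosidase XYL3b (OPB40840). Other genes with negative changes were the Zn2Cys6 regulator OPB47165 (-6.18), the GH2 mannosidase OPB43763 (-4.74), the receptor OPB41747 (-4.44), the MFS permease OPB45001 (-3.07) and the MFS permease OPB36423 (-3.03). Positive changes were found for the hypothetical protein OPB45516 (6.16), the hypothetical protein OPB46144 (5.82), the SSCRP OPB41745 (5.02) and the cytochrome P450 OPB36803 (2.22). All 17 passed without replicate 2 of ∆Tgace1 on xylan, and 14 of the 17 passed without replicate 1 of ∆Tgace1 on Avicel at 24 h.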

How the results depend on the processing

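The 31 genes higher and 346 genes lower in ∆Tgace1 than in ∆Tgace2 on Avicel at 24 h depended on the processing in number, and none of these genes was called in the opposite direction under any alternative tried. The higher genes numbered 85 with a pseudocount of 0.1, 19 with a pseudocount of 2 and 55 when arrays were weighted, and the lower genes 393, 308 and 461 under the same settings. Median scaling gave 57 higher and 183 lower genes, quantile normalisation 44 and 137, and scaling to the same RPKM sum, chosen after seeing the data, 425 and 39. With only the 6 compared libraries in the fit there were 5 higher and 71 lower genes. Leaving out 1 library at a time gave 28 to 49 higher and 284 to 428 lower genes. Without a filter the counts were 31 and 344, with a mean above 5 RPKM 22 and 343, and with unadjusted p 37 and 349. Same-numbered libraries of the mutants had correlated deviations of -0.302, 0.136 and -0.326, so the numbers did not pair them, and a fit with the replicate number as a block gave 32 higher and 346 lower genes. There were 3 higher and 10 lower genes called under all 16 alternatives other than scaling to the same sum. With depth unknown, differences between genes at low RPKM cannot be given a counting error.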
